A study of Mus musculus with 6 samples.

Results

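The cytokine genes Il2, Il3, Csf1, Csf2, Lif and Osm, 6 in all, were followed in helper T cells. They are read by all probe sets whose platform annotation gives exactly 1 symbol, and that symbol one of the 6. That is 10 of 45101 probe sets, and 9 of the 10 passed the filter on dim signals. Csf1 had 4 probe sets, Lif had 2 and each of the others 1. A probe set annotated to both Ntan1 and Il2 was left out. CD4+ T cells from mouse spleen and lymph nodes were cultured in vitro, and their RNA was read on 6 oligonucleotide arrays, with 2 arrays each for Control, RA and Ro. The series title names retinoic acid, a derivative of vitamin A, which RA is taken to abbreviate, while Ro is not spelled out in the labels. Strain, age, genotype and doses of RA or Ro were not used here, as no label states them. Culture conditions are stated for Control replicate 2 alone: 5 days with human IL-2 at 100 U/ml and human TGF-b1, with mouse IL-6, IL-1b, IL-23, IL-21 and TNF-a, and with antibodies to IL-4 and IFN-gamma. Whether the remaining 5 arrays share these conditions is unknown here, so that in any comparison with Control the agent and other differences of culture cannot be told apart.

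An activated helper T cell secretes these proteins soon after its antigen receptor is engaged. IL-2, encoded by Il2, is the classical T cell growth factor, and its receptor combines an alpha, a beta and a common gamma chain. IL-3 and GM-CSF, encoded by Il3 and Csf2, act on myeloid precursors, basophils and mast cells through the common beta chain Csf2rb, and M-CSF, encoded by Csf1, sustains macrophages through Csf1r. LIF and oncostatin M, encoded by Lif and Osm, signal through gp130, the product of Il6st. Transcription of Il2, Il3 and Csf2 is classically driven by NFAT and AP-1, which are switched on below the T cell receptor. In the RefSeq gene table of GRCm38.p6, Csf2 and Il3 are adjacent on chromosome 11, as are Osm and Lif, whereas Il2 and Csf1 lie on chromosome 3.

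The 250 bases before the start sites of Il2, Il3, Csf2 and Lif are shown because these genes had their highest value on the same array, Control replicate 2. They are from RefSeq, build GRCm38.p6, at chr3:37125955-37126204 (minus strand), chr11:54267280-54267529 (minus strand), chr11:54249900-54250149 (minus strand) and chr11:4257318-4257567 (plus strand). Each runs from 5′ to 3′ along its gene, and capitals mark the NFAT core GGAAA and the AP-1 motif TGANTCA, searched on both strands. Osm has no entry.
Il2: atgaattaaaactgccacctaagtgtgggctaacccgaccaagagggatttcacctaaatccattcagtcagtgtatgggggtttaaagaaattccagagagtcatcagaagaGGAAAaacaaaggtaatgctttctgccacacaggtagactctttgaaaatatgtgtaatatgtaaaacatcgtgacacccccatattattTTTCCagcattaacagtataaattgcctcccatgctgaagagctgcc
Il3: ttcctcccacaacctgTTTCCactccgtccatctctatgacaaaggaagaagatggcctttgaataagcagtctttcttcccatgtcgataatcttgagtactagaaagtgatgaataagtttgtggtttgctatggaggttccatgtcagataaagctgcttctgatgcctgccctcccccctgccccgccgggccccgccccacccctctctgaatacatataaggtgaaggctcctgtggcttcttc
Csf2: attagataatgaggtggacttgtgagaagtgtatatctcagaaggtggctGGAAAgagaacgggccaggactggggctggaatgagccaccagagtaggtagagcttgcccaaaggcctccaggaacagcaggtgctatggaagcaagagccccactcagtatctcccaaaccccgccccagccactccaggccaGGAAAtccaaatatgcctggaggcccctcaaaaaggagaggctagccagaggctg
Lif: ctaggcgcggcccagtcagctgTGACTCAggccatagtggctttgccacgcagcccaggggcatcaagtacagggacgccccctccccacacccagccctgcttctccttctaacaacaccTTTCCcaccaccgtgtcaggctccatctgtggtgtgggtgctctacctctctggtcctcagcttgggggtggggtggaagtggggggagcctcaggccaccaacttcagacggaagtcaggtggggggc

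The NFAT core was found upstream of 5 of the 5 members with an entry, Csf1 included, and in 55.6% of all 32851 stretches of this length. Its matches began 137 and 47 bases before the start of Il2, 200 and 55 before that of Csf2, 234 before that of Il3 and 129 before that of Lif. The AP-1 motif was found upstream of Lif, 228 bases before its start, in 1 of the 5, and in 6.75% of all stretches. A STAT motif (TTCNNNGAA) was found in 0 of the 5 (7.02% of all stretches), and the retinoic acid receptor half-site AGGTCA in 0 of the 5 (14.0%). These are matches of letters within a short window and say nothing of factor binding.

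The arrays differed in level, with median signals of 16.3 to 23.8 arbitrary units. The log2 values of the 5 arrays other than Control replicate 2 correlated at 0.947 to 0.970 with each other, and that array correlated with them at 0.869 to 0.880. The summed signal of 7 T cell markers, Cd3e and Cd4 among them, was 20450 to 30356, and 0 of them lay below the filter level on any array. Markers of other cells differed between arrays: the summed signal of 10 mast cell and basophil markers was 173 on Control replicate 2 and 1488 to 6246 on the rest, and that of 7 macrophage and monocyte markers was 144 and 383 to 1677. The macrophage and monocyte list did not fall as a whole. Once each array was centred on its median, 3 of its 7 markers were lowest on Control replicate 2 and 2 were highest. Single markers of cytotoxic cells were higher on Control replicate 2, but their lists did not follow as a whole. Cd8a had a signal of 236 on Control replicate 2 and 4.29 to 23.2 on the rest, while Cd8b1 had 85.0 and 54.6 to 164. Klrk1, an activating receptor of NK and CD8 T cells, had 627 and 11.4 to 191, while 3 of 4 NK cell markers lay below the filter level on Control replicate 2 and the summed NK signal was 643 there and 297 to 1031 on the rest. The summed signals of B cell, dendritic cell and stromal markers were 27.8 to 109. In bulk RNA, fewer cells of a type and less RNA per cell cannot be told apart. The part of these cell types in the results on the cytokine genes was not tested.

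Il2 had signals of 56.9 and 2288 in Control, 36.9 and 39.99 under RA, and 31.7 and 61.0 under Ro. One Control array thus stood 37.5-fold above the highest of the other 5, which lay within 1.92-fold of each other. The group means were 1173 ± 1578 (SD, n = 2) for Control, 46.4 ± 20.7 for Ro and 38.4 ± 2.21 for RA, and no step in that order exceeded the spread. Il3, adjacent to Csf2, had Control values of 0.647 and 46.2, RA values of 0.650 and 0.907, and Ro values of 3.86 and 0.996. It reached percentile 65.3 of its array on Control replicate 2 and lay between percentiles 4.2 and 22.9 on the others. Il3 was therefore not tested, and no fold is given for signals this dim.

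**Figure D1:**
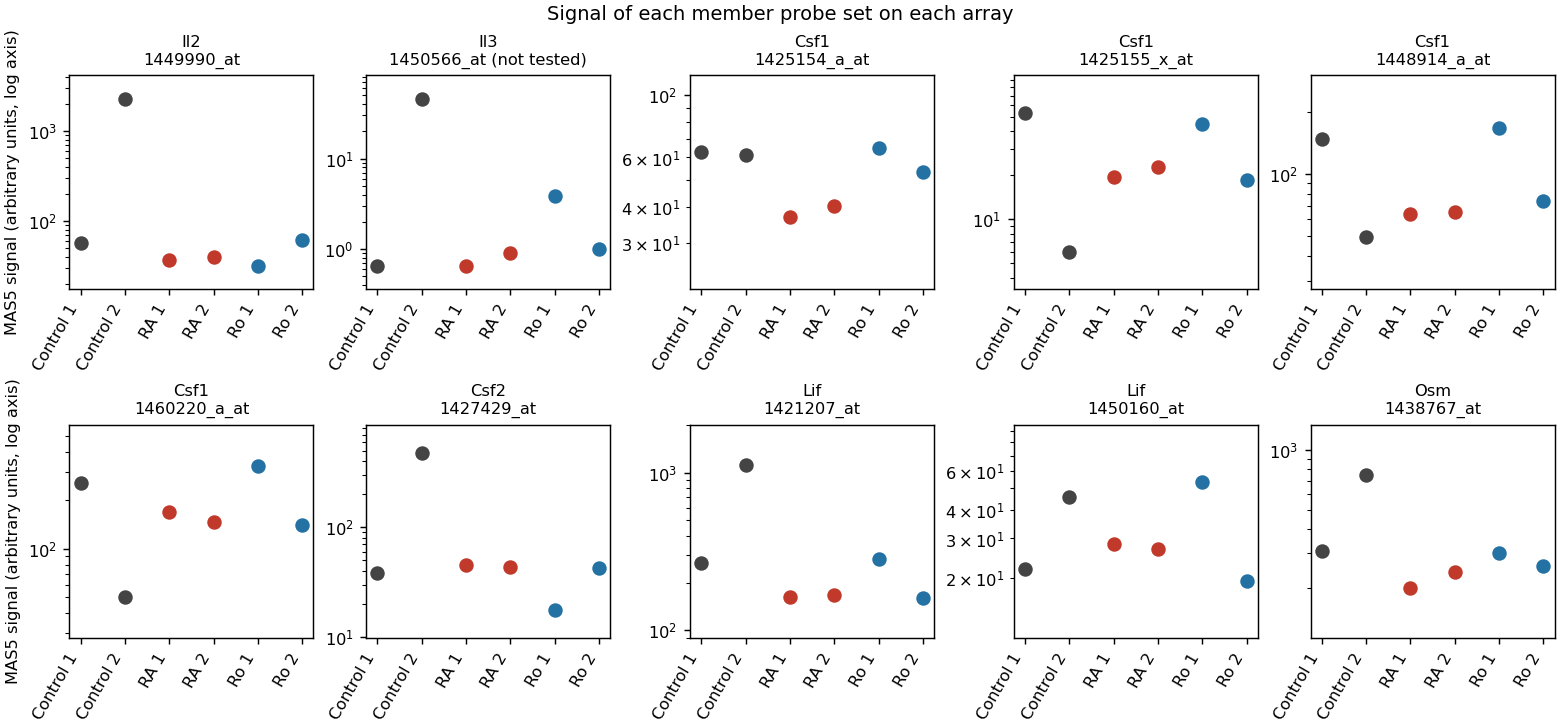
MAS5 signal of each of the 10 member probe sets (arbitrary units, log axis, scaled to each panel) on the 6 arrays, 1 point per array, grey for Control, red for RA and blue for Ro. Control replicate 2 stands above the other arrays for Il2 (2288), Il3 (46.2), Csf2 (481), Lif (1124 in its brighter probe set) and Osm (747), and below them in 3 of the 4 Csf1 probe sets.

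Csf2, which encodes GM-CSF, had signals of 38.5 and 481 in Control, 45.4 and 43.7 under RA, and 17.5 and 42.9 under Ro. Control replicate 2 was 10.6-fold above the highest of the others, among which Ro replicate 1 was the lowest. Lif, whose product keeps mouse embryonic stem cells undifferentiated, had Control values of 266 and 1124, RA values of 164 and 167, and Ro values of 283 and 161 in its brighter probe set. Control replicate 2 was 3.98-fold above the highest of the others, and the Ro arrays lay on either side of both RA arrays. The dimmer Lif probe set had 22.0 and 46.0 in Control, 28.4 and 26.9 under RA, and 53.3 and 19.5 under Ro, so there Ro replicate 1 had the highest signal. With each array centred on its median, Control replicate 2 was the highest there too, at a log2 value of -0.20 against -0.61 on Ro replicate 1.

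Osm, made by activated T cells and macrophages, had Control values of 310.4 and 747, RA values of 201 and 241, and Ro values of 301 and 259. Control replicate 2 was 2.41-fold above the next array, and the remaining 5 lay within 1.54-fold. The means were 529 ± 309 (SD, n = 2) in Control, 280.0 ± 29.1 in Ro and 221 ± 28.0 in RA. As deposited, both RA signals of Osm were below both Ro signals, but the groups overlapped once each array was centred on its median.

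In signals as deposited, Csf1 went the other way in most of its probe sets. The brightest had 257 and 50.3 in Control, 171 and 148 under RA, and 329 and 140.2 under Ro, so that Control replicate 2 was the lowest and Ro replicate 1 the highest. A second had Control values of 148 and 49.5, RA values of 63.8 and 65.0, and Ro values of 166 and 73.5, and the one marked as cross-hybridising had 53.4 and 6.01 in Control, 19.3 and 22.9 under RA, and 45.1 and 18.5 under Ro. Both repeat the low signal on Control replicate 2. Once centred, the second was not lowest there, at a log2 value of -0.10 against -0.30 on Ro replicate 2. The fourth, 1425154_a_at, had Control values of 62.8 and 61.1, RA values of 37.0 and 40.4, and Ro values of 65.0 and 53.5. There Control replicate 2 was not low, and the RA pair was below the other 4 arrays, a pattern met by 1 of 9 tested member probe sets and by 4.04% of all tested probe sets. The probe sets of Csf1 disagree on Control replicate 2: 1425154_a_at correlated with the other 3 at -0.27, 0.30 and -0.37 over the 6 arrays, and at 0.80, 0.94 and 0.78 over the 5 without it.

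After each array was centred on its median log2 value over the tested probe sets, 6 of 9 tested member probe sets had their highest value on Control replicate 2 and 2 of 9, both of Csf1, their lowest. The 6 included the Csf1 probe set 1425154_a_at and both Lif probe sets. Over all 29507 tested probe sets the shares were 38.6% and 28.1%, so an extreme value on that array was common. A difference as large as that of Il2 was not. Il2 was higher on Control replicate 2 than on Control replicate 1 by 5.99 on the log2 scale, with 27 tested probe sets above it, and Csf2 by 4.27, with 101 above it. Lif (2.79) and Osm (1.99) exceeded 98.4% and 95.2% of tested probe sets, and Csf1 in its brightest probe set stood at -1.56, with 5.67% lower. These values describe 2 arrays that carry 1 label.

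**Figure D2:**
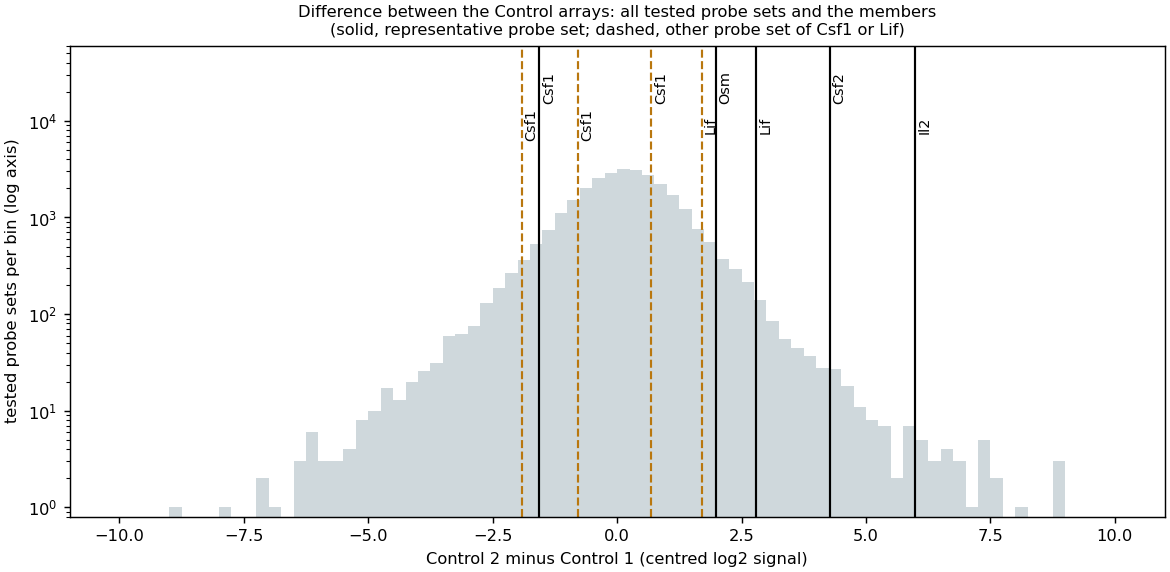
Histogram (log axis) of the difference in centred log2 signal between Control replicate 2 and Control replicate 1 over the 29507 tested probe sets, with lines for the 9 tested member probe sets (solid for the one representing its gene). Il2 at 5.99 and Csf2 at 4.27 lie in the right tail, Lif and Osm at 2.79 and 1.99, and the brightest Csf1 probe set at -1.56.

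RA was first compared with Ro. The outlying Control array is in neither group, but it enters through the estimate of spread, the filter, the centring and the pseudocount. No growth factor gene passed there, and the differences of Il2, Lif, Osm and Csf1 were small. In the limma fit of all 6 arrays, RA minus Ro of centred log2 values was 0.03 (SE 1.64) for Il2, and its sign turned with values as deposited. Lif stood at -0.14 (SE 0.83), Osm at -0.12 (SE 0.60) and Csf1 at -0.21 (SE 0.62), each turning in sign without Ro replicate 1. Csf2 stood at 0.84 (SE 1.22), with both RA values above both Ro values. It was 0.34 without Ro replicate 1 and 1.37 without Ro replicate 2.

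Of the 9 tested member probe sets limma called 0 at an adjusted p of 0.05, as it did over all tested probe sets (0.0%), and 0 at an unadjusted p of 0.05, against 525 of all (1.78%). The adjusted p of limma was 1.00 for each of the 5 tested genes. RA was higher without overlap for 1 of 9 member probe sets (Csf2) against 16.3% of all, and lower for 1 of 9 (Csf1, 1425154_a_at) against 18.3%, shares near the background. In the limma fit of the 4 RA and Ro arrays alone 0 members were called, against 10 of 27878 probe sets (0.0359%). Its 95% intervals of the log2 difference were -0.79 to 0.87 for Il2, -0.97 to 0.70 for Lif, -0.71 to 0.48 for Osm, -1.27 to 0.86 for Csf1 and -0.12 to 1.83 for Csf2. In that fit a 2-fold difference lay inside the interval for Csf1 and Csf2 and outside it for Il2, Lif and Osm. The dimmer Lif probe set had an interval of -1.21 to 1.22, which holds 2-fold. With all 6 arrays the intervals were -3.86 to 3.91 for Il2, -2.12 to 1.83 for Lif and -1.55 to 1.31 for Osm. Each of these holds 2-fold, so such a difference is not excluded. No label states that replicates were separate cultures or animals, so all errors measure the spread between arrays, which may be technical.

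RA was then compared with Control. Values were lower under RA for 4 of the 5 tested genes, and none passed. The log2 difference was -3.26 (SE 1.64) for Il2, -1.81 (SE 0.83) for Lif, -1.68 (SE 1.22) for Csf2, -1.22 (SE 0.60) for Osm and 0.36 (SE 0.62) for Csf1. For Il2, Lif and Osm the RA values lay below both Control values, with means at least 2-fold apart, which held for 3 of 9 member probe sets and 3.2% of all. Without the fold, 5 of 9 had centred RA values below Control (12.7% of all), the other 2 being of Csf1. In 0 of 9 was RA above Control (16.1%). For the Csf1 probe set 1448914_a_at the uncentred signals of RA and Control overlapped. In limma 0 of 9 were called at an adjusted p of 0.05 (0.0% of all) and 0 at an unadjusted p of 0.05, against 674 of all (2.28%). Its adjusted p was 0.914 for Il2, Lif, Csf2 and Osm and 0.931 for Csf1.

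These sizes depend on Control replicate 2. Without it the differences were -0.27 (SE 0.42) for Il2, -0.42 (SE 0.43) for Lif and -0.23 (SE 0.31) for Osm, while Csf2 turned to 0.45 (SE 0.50) and Csf1 to -0.43 (SE 0.54). The 95% intervals of that fit were -1.28 to 0.73 for Il2, -1.43 to 0.59 for Lif and -0.96 to 0.50 for Osm, each spanning 0. Both RA signals of these 3 genes were still below that of Control replicate 1, for Il2 at 36.9 and 39.99 against 56.9. Without Control replicate 1 the differences were -6.26 for Il2, -3.82 for Csf2, -3.21 for Lif and -2.21 for Osm, and these 4 passed in limma at adjusted p values of 0.00110 to 0.00935. In that fit 11.3% of all probe sets were called and 6.4% were called lower under RA, and the lone Control array was assumed to vary like the other groups.

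**Figure D3:**
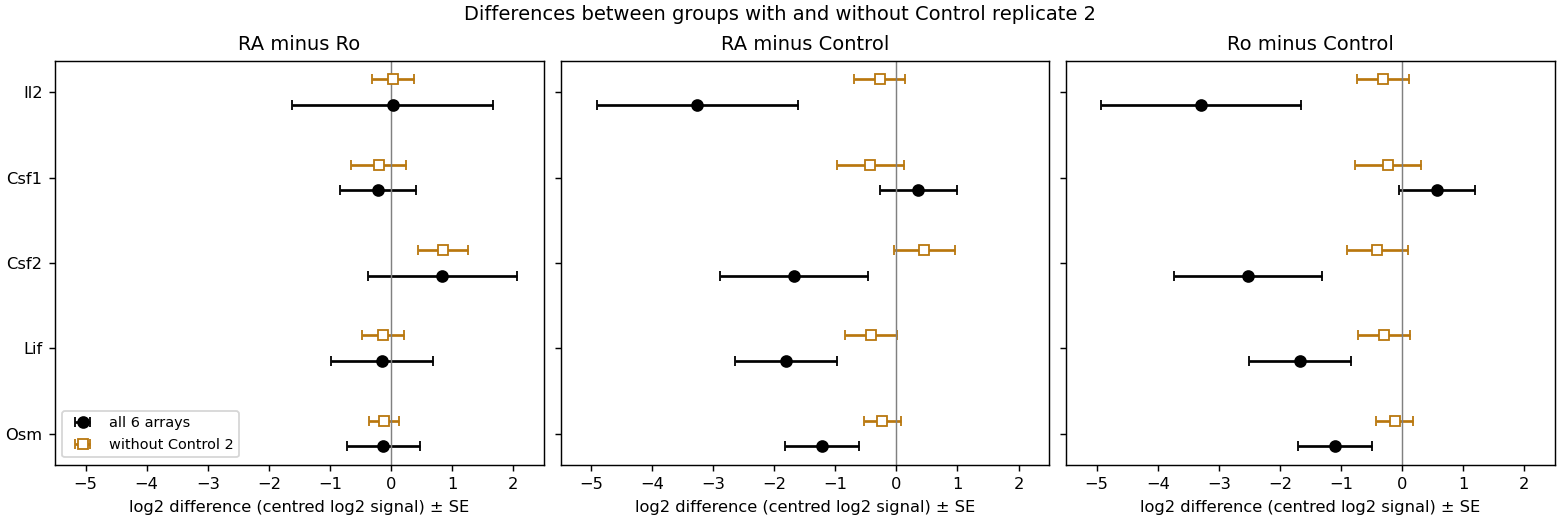
Log2 difference of centred signals with its SE for the 5 tested members in each of the 3 comparisons, from the fit of all 6 arrays (black circles) and without Control replicate 2 (open squares). The differences of Il2, Csf2, Lif and Osm from Control, down to -3.29 with all arrays, lie between -0.42 and 0.45 without that array.

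The comparison of Ro with Control shares its Control arrays with the one before. Ro minus Control was -3.29 (SE 1.64) for Il2, -2.52 (SE 1.22) for Csf2, -1.66 (SE 0.83) for Lif, -1.09 (SE 0.60) for Osm and 0.57 (SE 0.62) for Csf1. The centred Ro and Control values overlapped for 9 of 9 tested member probe sets, whereas 16.4% of all were lower and 19.2% higher in Ro without overlap. For Osm the uncentred Ro signals, 301 and 259, were both below those of Control, 310.4 and 747. In limma 0 of 9 were called at an adjusted p of 0.05 (0.0% of all) and 0 at an unadjusted p of 0.05, against 1717 of all (5.82%). Without Control replicate 2 the values were -0.31 for Il2, -0.40 for Csf2, -0.29 for Lif, -0.12 for Osm and -0.22 for Csf1. Without Control replicate 1 Il2 (-6.29), Csf2 (-4.67), Lif (-3.07) and Osm (-2.10) passed in limma at adjusted p values of 9.32e-04 to 0.00814, where 14.3% of all probe sets were called and 7.7% were called lower.

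The receptor chains for these cytokines took no common direction. Of 11 listed chains 8 were tested and 0 passed in any of the 3 comparisons, with a median RA minus Ro of -0.06 against -0.02 over all 12986 tested genes. On Control replicate 2, 4 of the 8 were highest and 3 lowest, against 5389 and 3539 of all tested genes, shares near the background. Il2ra, the alpha chain that gives the IL-2 receptor high affinity, had signals of 601 and 3062 in Control, 587 and 588 under RA, and 843 and 496 under Ro. Csf2rb, the common beta chain for IL-3, IL-5 and GM-CSF, had Control values of 723 and 8.39, RA values of 303 and 339, and Ro values of 1124 and 569. Csf2rb2, the second mouse beta chain, specific for IL-3, had 558 and 5.29 in Control, 181 and 234 under RA, and 1040 and 496 under Ro. Control replicate 2 was thus highest for Il2ra, Il2, Il3 and Csf2 and lowest for both beta chains.

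Between RA and Ro the beta chains had the largest differences of the list, -1.57 (SE 1.49) for Csf2rb2 and -1.10 (SE 1.47) for Csf2rb, and the groups did not overlap for either. Mast cell and basophil markers moved with them: 9 of 9 tested were lower in RA by value, 8 without overlap, at a median of -1.23, where 6842 of 12986 tested genes were lower by value and 2647 without overlap. On Control replicate 2, where the beta chains were dimmest, 8 of 10 of these markers lay below the filter level, and Mcpt8, a basophil protease, had 6.72 against 594 to 2599 on the rest. Their part in the values of the beta chains was not tested. Il6st, the shared chain for LIF and oncostatin M, had Control values of 967 and 110.1, RA values of 634 and 1025, and Ro values of 722 and 1485, lowest on Control replicate 2. The partner chains Lifr and Osmr were below the filter, at 0.831 to 7.67 and 0.534 to 7.99 over the 6 arrays.

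**Figure D4:**
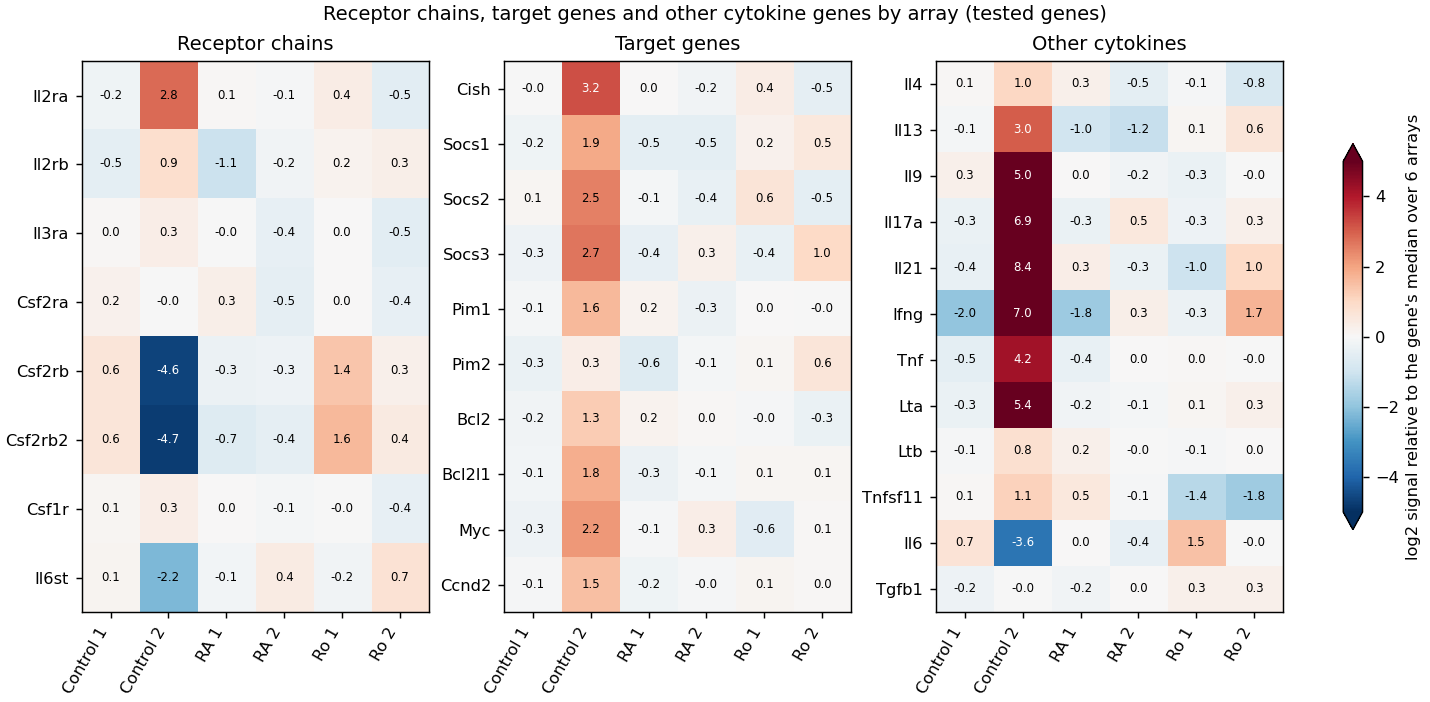
Log2 signal of the tested receptor chains, target genes and other cytokine genes on each array, relative to the gene's median over the 6 arrays (numbers and colour, colour limited at both ends of the scale). Control replicate 2 carries the extreme values: high for 9 of 10 target genes and 10 of 12 other cytokines, and low for Csf2rb, Csf2rb2, Il6st and Il6. It was highest for 5389 of 12986 tested genes.

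Genes that these cytokines switch on through STAT proteins were also highest on Control replicate 2, in 9 of 10 cases against 5389 of 12986 tested genes. Cish, a feedback inhibitor induced by STAT5, had signals of 556 and 3185 in Control, 454 and 435 under RA, and 682 and 415 under Ro. Socs2, another STAT5 target, had Control values of 1088 and 3553, RA values of 747 and 687, and Ro values of 1467 and 737. The median RA minus Control of the list was -0.94 against 0.00 over all tested genes, with 10 of 10 below 0 and 0 called in limma. Without Control replicate 2 that median was -0.04 against 0.12 over all genes tested then, with 6 of 10 below 0. Between RA and Ro 8 of 10 were below 0, against 6842 of 12986 tested genes, at a median of -0.27 with 0 called. The largest differences were those of Socs1, -0.87 (SE 0.64), and the survival kinase Pim2, -0.69 (SE 0.38).

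Of the JAK and STAT genes that carry the signal, 7 of 7 tested were below 0 for RA minus Ro, against 6842 of 12986 tested genes. Their median was -0.29 with 0 called, and without Control replicate 2, 6 of 7 were below 0. RA lay below Ro without overlap for 4 of these, against 2647 of 12986 tested genes. The largest differences were those of Stat5a, -0.78 (SE 0.52), and Stat5b, -0.59 (SE 0.33), which act below the IL-2 and IL-3 receptors. Stat5a had signals of 411 and 643 in Control, 209 and 428 under RA, and 529.8 and 681 under Ro.

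Of the transcription factors that induce cytokine genes after activation, 15 of 17 were tested, with 0 called in any comparison. On Control replicate 2, 12 of the 15 were highest, against 5389 of 12986 tested genes. Without that array 14 of the 15 passed the filter. Jun, an AP-1 subunit, had Control values of 78.4 and 923, RA values of 92.5 and 88.1, and Ro values of 114 and 106. Bhlhe40, needed in mice for GM-CSF production by helper T cells, had 458 and 1825 in Control, 322 and 373 under RA, and 853 and 377 under Ro. Nfatc1, an NFAT family member, was instead lowest on Control replicate 2, with Control values of 829 and 139, RA values of 798 and 1029, and Ro values of 994 and 1257. Fosl2, a further AP-1 subunit, showed the largest RA minus Ro difference of the list, -1.07 (SE 0.59), with 219 and 252 against 738 and 452.

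Factors that restrain Il2 were lower in RA than in Ro by value for 5 of 5, against 6842 of 12986 tested genes. They were lower without overlap for 4, against 2647 of 12986, and their median was -0.50 with 0 called. Ikzf3, the Ikaros family member Aiolos, had 479 and 246 in Control, 235 and 516 under RA, and 575 and 961 under Ro. Prdm1, which encodes Blimp-1, had Control values of 54.5 and 25.3, RA values of 31.6 and 63.7, and Ro values of 64.5 and 96.0. For Ikzf3, RA replicate 1 had the lowest signal and the Ro arrays the highest, while for Prdm1 the RA and Ro values overlapped once centred, and 0 of the 5 were highest on Control replicate 2. The genes of mRNA decay, which shorten the life of cytokine transcripts, stood at a median RA minus Ro of -0.10 over 9 tested, with 0 called. Zfp36, whose product binds AU-rich elements, had 2002 and 558 in Control, 1247 and 1735 under RA, and 1315 and 2553 under Ro, lowest on Control replicate 2. The largest RA minus Control differences of that list were -0.83 (SE 0.47) for Zc3h12a, the RNase Regnase-1, and 0.55 (SE 0.37) for Zfp36l2.

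Other helper T cell cytokines shared the array of highest value. Of 16 listed, 12 were tested and 10 of these were highest on Control replicate 2, against 5389 of 12986 tested genes. Only 10 of the 12 passed the filter without that array, so the count is in part set by the filter. In limma 0 were called in any comparison. Il21, a cytokine of follicular and Th17 helper cells, had 2.97 and 1566 in Control, 4.66 and 2.30 under RA, and 0.491 and 12.4 under Ro. Ifng, the Th1 cytokine, had Control values of 3.86 and 2054, RA values of 3.15 and 25.5, and Ro values of 17.6 and 85.5. Il6 was the opposite, with 1.83 on Control replicate 2 and 63.5 to 253 on the rest. The median of the list was -2.28 for RA minus Control and -0.09 for RA minus Ro. Without Control replicate 2 the median RA minus Control was 0.16, against the same 0.12, over the 10 that passed the filter on the remaining arrays, with 3 below 0. The largest RA minus Ro difference was that of Tnfsf11, the ligand RANKL, at 1.83 (SE 0.45), with 151 and 112 under RA against 44.8 and 36.7 under Ro and an adjusted p in limma of 1.00. Ifng was next at -1.48 (SE 2.54).

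The genes beside the members on the chromosome did not all follow them. Of 32 measured neighbours 25 were tested and 14 were highest on Control replicate 2, against 5389 of 12986 tested genes. Without that array 24 of the 25 passed the filter, and Il21 is also counted among the other cytokines. Il21, the next measured gene after Il2, was far higher there, as was P4ha2, a collagen-modifying enzyme beside Csf2, at 311 against 12.3 to 32.9 on the rest. Pdlim4, the next measured gene beyond P4ha2, had 2.72 on Control replicate 2 and 679 to 969 on the rest. Near Lif and Osm, Castor1 had 451 and 669 in Control, 338 and 335 under RA, and 423 and 478 under Ro, a smaller excess than that of either member. Beside Csf1, Ahcyl1 had 667 on Control replicate 2 and 673 to 1071 on the rest. Once centred, its log2 value was instead 0.47 higher on Control replicate 2 than on Control replicate 1.

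**Figure D5:**
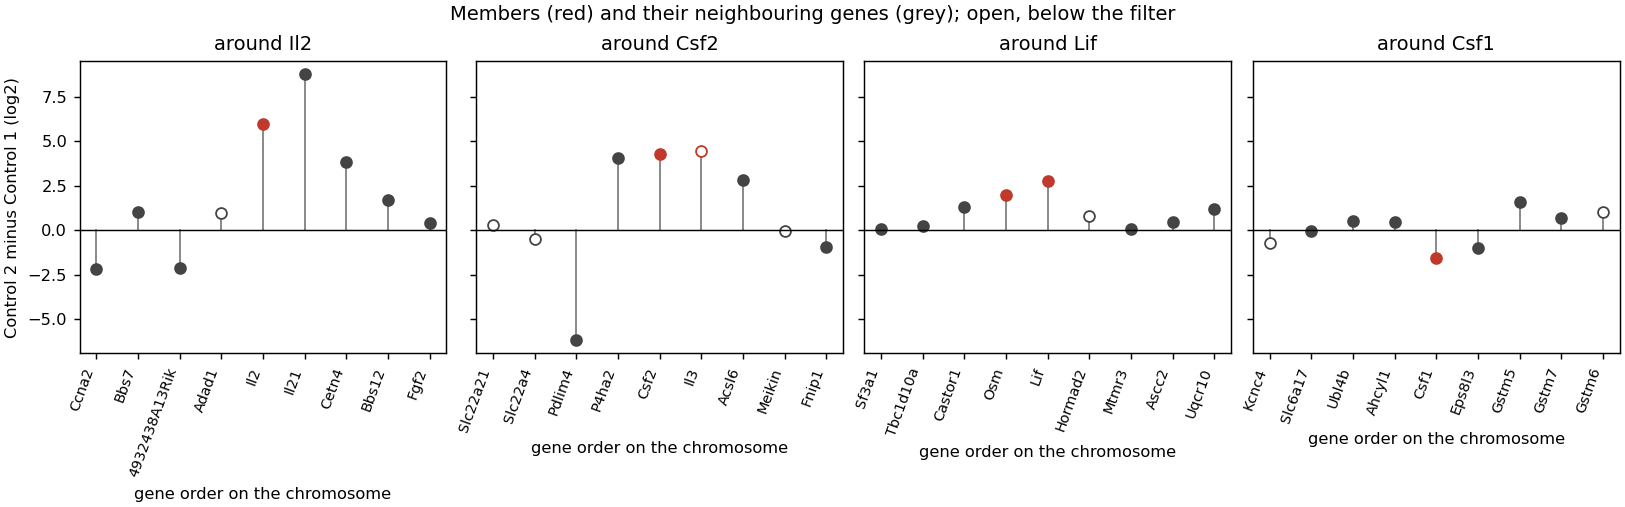
Difference in centred log2 signal between Control replicate 2 and Control replicate 1 for the members (red) and up to 4 measured genes on either side (grey), in gene order, with open points below the filter. Il2 (5.99) and Csf2 (4.27) stand among neighbours on both sides of 0, with Pdlim4 at -6.17.

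The genes most like each member over the 6 arrays share its high or low value on Control replicate 2. As r is given only with that array included, each likeness is a description. Among 7526 tested genes with a range of at least 1 on the log2 scale, Pearson's r with Il2 was highest for Hgh1 (0.998) and Mfsd2a (0.998), and 47 genes exceeded 0.99. For Csf2 they were Peli2 (0.999) and Ramp1 (0.999), and for Lif Dab2 (0.998) and Sestd1 (0.998). For Osm they were the metallothionein gene Mt2 (0.998) and Maf (0.998), which encodes a transcription factor of cytokine-producing helper T cells. For Csf1 they were Ppwd1 (0.994) and Hspa4l (0.9905), which like Csf1 also had their highest signals on Ro replicate 1, at 92.4 and 728. Among the members, r was 0.991 for Lif with Osm, 0.973 for Il2 with Csf2, and -0.86 to -0.56 for Csf1 with the other 4.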

How the data were processed

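Each hybridisation used 2 ug of total RNA. The deposited values are linear intensity values per probe set that the authors computed by MAS5, as listed among the submitters' processing tools, with no version, scaling target or genome build stated. Titles gave the groups, and 1 title spells Ro as RO. Symbols came from GEO's platform annotation.

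Probe sets entered the test where 2 or more of the 6 arrays had them above percentile 40, leaving out 64 control probe sets. Values were log2(signal + 3.00), the pseudocount being the 20th percentile of all values, which understates differences of dim genes. Each array was centred on its median, because the median log2 difference as deposited was -0.21 for RA minus Ro, 0.09 for RA minus Control and 0.29 for Ro minus Control. Printed signals are uncentred. All 6 arrays entered 1 fit in limma 3.58.1 under R 4.3.3 (lmFit, eBayes with an intensity trend, 3 residual degrees of freedom, tests for either direction, Benjamini-Hochberg over all tested probe sets). The fit was also run on simulated data of equal spread with no outlying array. That run cannot show how the fit behaves on these arrays. The number of arrays limits the precision. Alternatives were other pseudocounts, scalings, filters and variance models, a replicate block, and leaving out each array, and list medians without Control replicate 2 were added after seeing the data.

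The members, gene lists and naming rules were chosen with earlier results of these data known. Each gene is represented by its brightest tested probe set not marked as cross-hybridising. In each list the 2 genes of largest difference were to be named, since none passed, and for each member the 2 of highest correlation. Il2ra, Il6st, Lifr, Osmr, Nfatc1, Zfp36, Il6, Cd8a, Cd8b1, Klrk1, Mcpt8 and the chromosomal neighbours were named after their values were seen.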

Additional observations from a re-analysis of the deposited data

How the results depend on the processing

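With all 6 arrays no tested member passed in limma in any comparison, under any of the pseudocounts, scalings, filters, variance models or the replicate block tried. Members were called only without Control replicate 1, in a fit that leaves 1 Control array. Leaving out 1 array at a time gave 0 to 10 called probe sets for RA minus Ro, 0 to 3270 for RA minus Control and 0 to 4127 for Ro minus Control. With a pseudocount at the median of all values 2 were called for RA minus Ro and 2 for RA minus Control, and with the 4 arrays compared 10 for RA minus Ro. A 2-fold difference without overlap, with no test, was met by 1256, 1864 and 2617 probe sets. With the replicate number as a block 0 were called in each comparison. The samples share only that number, and their replicate differences correlated at 0.0048 (Control and RA), -0.029 (Control and Ro) and 0.25 (RA and Ro).

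Of 246 member values under alternatives 12 changed sign, and the cause was not tested. Il2 for RA minus Ro was -0.19 as deposited, -0.0338 after quantile normalization and -0.0908 with no filter. The mean of all Csf1 probe sets gave -0.22 for RA minus Control. Leaving out 1 array at a time, RA minus Ro was -0.34 to 0.41 for Il2, -0.88 to 0.47 for Csf1, -0.60 to 0.33 for Lif and -0.28 to 0.0599 for Osm. Likewise RA minus Control was -0.43 to 1.14 for Csf1 and -3.82 to 0.45 for Csf2, and Ro minus Control was -0.22 to 1.34 for Csf1. The sign turned without Ro replicate 1 for Il2, Csf1, Lif and Osm in RA minus Ro and for Csf1 in Ro minus Control, and without Control replicate 2 for Csf1 in both comparisons with Control and for Csf2 in RA minus Control. Scaling to a common trimmed mean, chosen after seeing the data, changed no sign and no call. Il3 and the other dim probe sets lie where MAS5 values are noisy.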
